A study of Mus musculus with 4 samples.

Results

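Heat shock proteins and cytosolic chaperones were followed in subcutaneous mouse tumors with and without knockdown of Taz. The genes were taken by symbol (Hspa, Hspb, Hspd, Hspe, Hsph and cytosolic Hsp90, the J-domain families Dnaja, Dnajb and Dnajc, the chaperonin subunits Cct2 to Cct8, Bag1 to Bag6, and the heat shock factors). The endoplasmic reticulum chaperones Hspa5 and Hsp90b1 were left out. The rule found 87 of the 15424 genes in the deposited table, and it used no measured value. The tumors with an shRNA against Taz (shTaz) and the control tumors with an shRNA against luciferase (shLuc) both grew in nude mice, which lack mature T cells, from transplanted R728T1 cells. The labels trace these cells to an Rb and P53 mouse model, name their type as small cell lung cancer and also call them non-SMCs, a term they do not spell out. Each group has 2 samples in the labels, but the table holds 1 FPKM value per gene and group (fragments per kilobase of transcript, scaled to the mapped total). Whether a column is a mean or a single library is not stated. There is no spread between replicates, so no difference below has a replicate check, an error or a test. Depth is unknown.

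Cells keep proteins folded with a small set of machines. Hsp70 binds short exposed stretches of a client under ATP control. J-domain proteins bring clients to it, and nucleotide exchange factors (the Hsp110 and BAG proteins) let them go. Hsp90 finishes signaling proteins, the ring-shaped chaperonins enclose newly made ones, and small heat shock proteins hold unfolded chains until Hsp70 can act. Heat shock factor 1 (Hsf1) raises many of these genes when unfolded protein builds up, and tumor cells are known to lean on this system.

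Taz can stand for a pair of genes. Wwtr1, which encodes the coactivator TAZ, was at 15.1 FPKM in shTaz and 23.4 FPKM in shLuc. The gene listed as Taz (Tafazzin) was at 9.50 FPKM in shTaz and 13.7 FPKM in shLuc, so both were lower in shTaz, and the labels do not give the shRNA sequence. Of 8 neuroendocrine markers of the labelled tumor type 4 were read. Ncam1 was at 43.8 FPKM in shTaz and 39.8 FPKM in shLuc and Uchl1 at 1.51 and 10.1 FPKM, while Syp was under 1 FPKM in both columns and Insm1 was listed at 0 in shTaz and at 0.169 FPKM in shLuc. The list was thus mixed, with Syp and Insm1 at or near 0 and Ncam1 and Uchl1 detected, and the samples are called tumors here.

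Of the 87 genes, 74 had a mean of at least 1 FPKM over the columns and were compared. The difference is log2((shTaz FPKM + 1) / (shLuc FPKM + 1)), positive where shTaz is higher, and a difference of 1 or more in size is called 2-fold. The genes called 2-fold higher in shTaz were Dnajb4, Hsph1 and Dnajb9, which is 3 of 74 (4.05%), against 3.96% of all 11650 genes compared. Dnajc4 was called 2-fold lower, 1 of 74 (1.35%), against 3.25% of all genes. The share of higher calls is close to that of all genes. Over all genes 461 were called higher and 379 lower as deposited, 310 and 493 after median-ratio scaling of the columns, which brings the median of all genes to 0, and 189 and 303 with GC and length trends subtracted (next paragraph). Just short of the 2-fold line lay Cct6a (0.97), Hspa4l (0.94), Dnaja2 (0.94), Dnaja1 (0.89) and Bag2 (0.86) on the higher side, and Hspb2 (-0.96) on the lower. Without the added 1 FPKM, the plain ratios of Hspa4l (2.26), Bag2 (2.02) and Hspb2 (0.496) pass that line. The median difference of the 74 genes was 0.23, beside 0.12 for all genes, and 44 of the 74 (59.5%) lay above the median of all genes. As deposited 52 of the 74 lay above 0, beside 6792 of all 11650 genes. With the trends subtracted these counts were 40 of 74 and 5556 of 11084.

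AT-rich transcripts were generally higher and GC-rich ones lower in the shTaz column, and the chaperone genes followed this. Their Spearman correlation with GC content was -0.45 over 74 genes, beside -0.56 over 11084 genes with a known GC content. All points of these correlations come from the same pair of columns. Chaperone genes with under 45% GC had a median difference of 0.44 (20 genes), those from 45% to 52% one of 0.38 (29 genes), and those of 52% and over one of -0.15 (25 genes). The same ranges gave 0.49, 0.22 and -0.18 over all genes. Differences below are therefore given as deposited and, for most genes, also with the GC and length trends of all genes subtracted. With the trends subtracted the median of the 74 chaperone genes was 0.06, no gene was called 2-fold higher, and Hsf2 (-1.24) and Dnajb14 (-1.18) were the genes called 2-fold lower. The sign changed for 18 of the 74 genes, 15 of them from positive to negative.

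**Figure D1:**
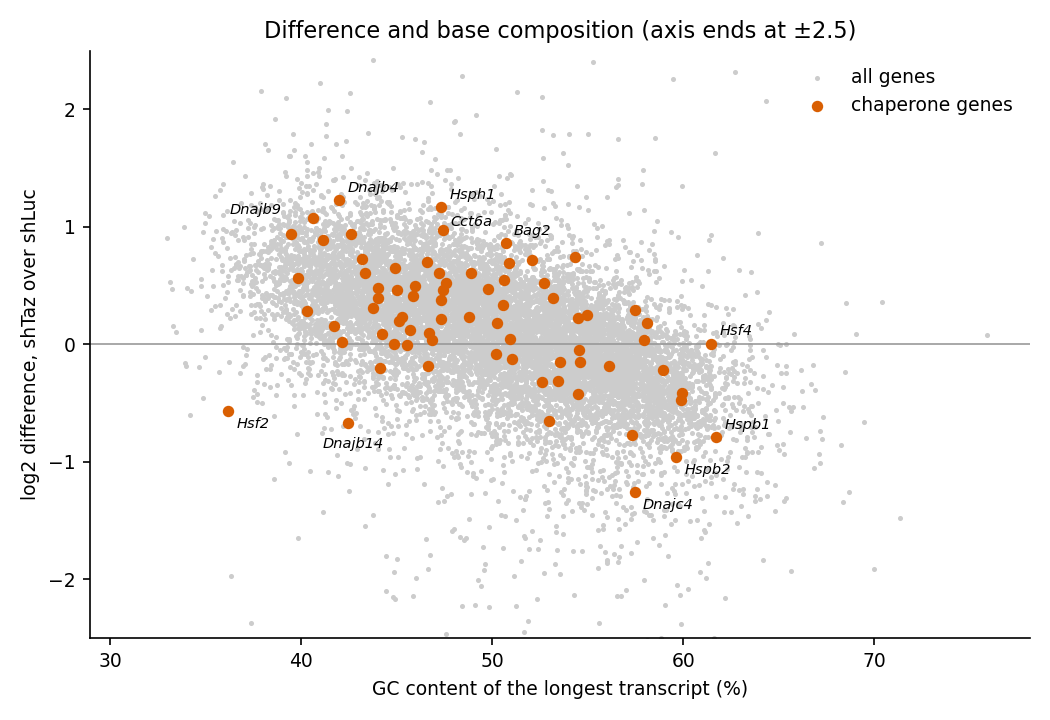
Each point is a gene with a mean of at least 1 FPKM; the x axis is the GC content of its longest transcript in percent and the y axis the log2 difference, shTaz over shLuc. Orange points are the chaperone genes and grey points all genes (those beyond 2.5 in size are not drawn). Dnajb4, Dnajb9 and Hsph1 lie in the AT-rich or middle part above 1, Dnajc4 and Hspb2 in the GC-rich part near -1, and Hsf2 and Dnajb14 lie low although AT-rich.

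The column sums bear on all levels. FPKM values summed to 427921 in shTaz and 501728 in shLuc. The 87 chaperone genes held 2896 FPKM in shTaz (0.677% of the column) and 2696 FPKM in shLuc (0.537%). Hsp90ab1, Hspa8 and Hspe1 made up 50.2% of the chaperone sum in shTaz and 51.6% in shLuc. They were the only chaperone genes above 100 FPKM in either column, while 41 genes in shTaz and 35 in shLuc lay from 10 up to 100 FPKM. The 13 genes under a mean of 1 FPKM were Cct6b, Dnajb3, Dnajb7, Dnajb13, Dnajc6, Dnajc22, Dnajc27, Dnajc28, Hsf2bp, Hspa12a, Hspb3, Hspb9 and Hspbap1. Of these, Cct6b and Dnajc6 were listed at 0 in shTaz, and Dnajb3, Dnajb7 and Hspb3 were listed at 0 in shLuc. In bulk tumor RNA, fewer cells of a type and less RNA per cell cannot be told apart.

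**Figure D2:**
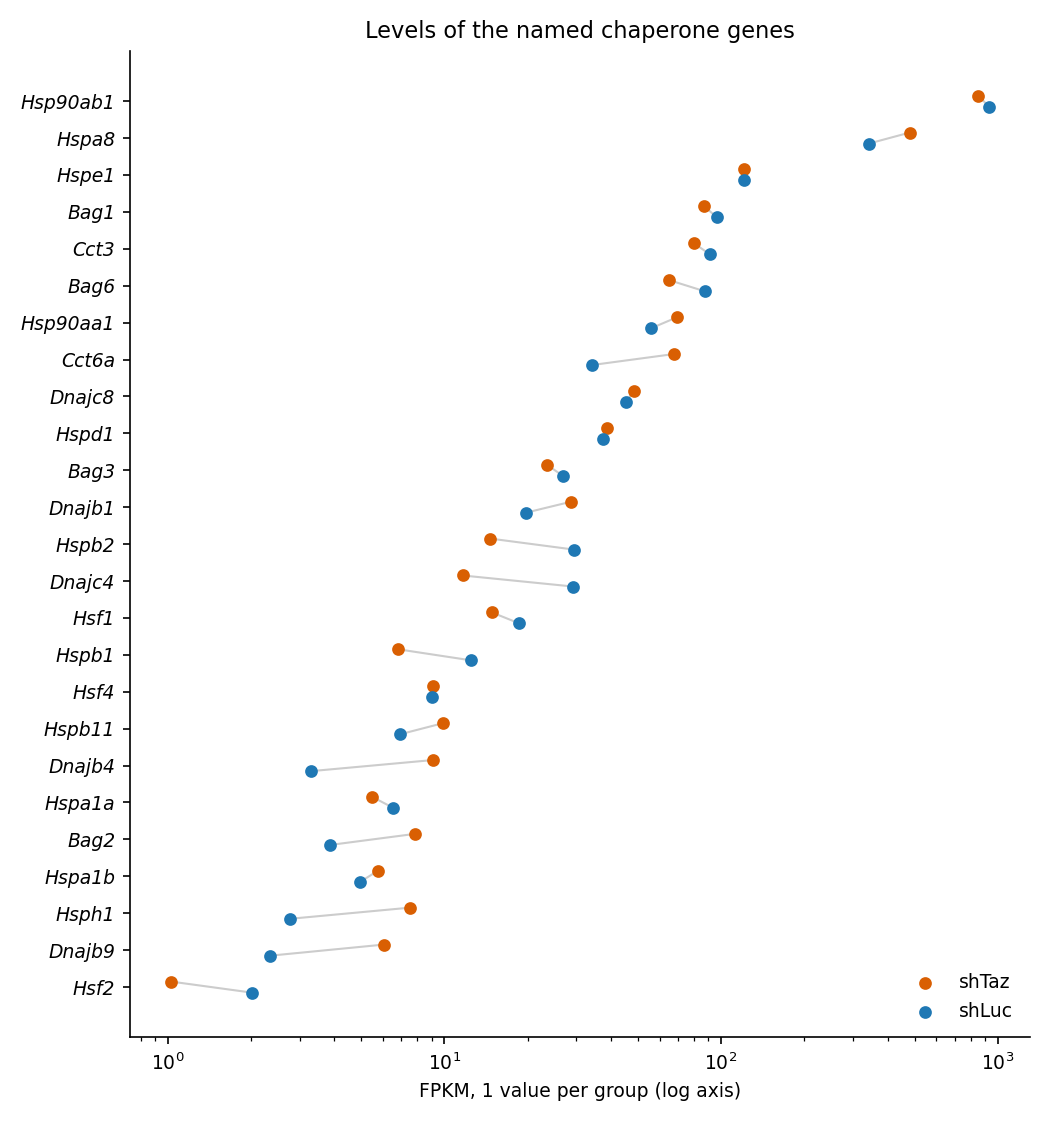
FPKM of the 25 genes taken by the naming rule, on a log axis, with 1 value per group (orange shTaz, blue shLuc) and genes ordered by mean level. Hsp90ab1 and Hspa8 stand far above the rest, the gaps are widest for Dnajb4, Hsph1, Dnajb9 and Dnajc4, and Hspe1, Hspd1 and Hsf4 nearly coincide.

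The transcription factors of the heat shock response were at modest levels. Hsf1, the main activator of the response, was at 14.9 FPKM in shTaz and 18.7 FPKM in shLuc (-0.31, and -0.31 with the trends subtracted). Hsf2, a related factor active in development and in proteotoxic stress, was at 1.03 FPKM in shTaz and 2.01 FPKM in shLuc. Its difference was -0.57 as deposited and -1.24 with the trends subtracted, and its transcript is AT-rich (36.2% GC). Hsf4, known from the lens, was equal at 9.08 FPKM in shTaz and 9.05 FPKM in shLuc (0.00 as deposited, -0.12 after median-ratio scaling and 0.49 with the trends subtracted). Hsf1 and Hsf2 were lower in shTaz in each scaling, and Hsf2 lay near the floor of 1 FPKM.

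Heat shock factors bind repeats of GAA and TTC. RefSeq promoters (build GRCm38.p6, from 250 bases before to 50 bases after each start site) were matched by symbol for 70 of the 87 genes and searched on both strands. The 3-unit element GAANNTTCNNGAA occurred in 4 of the 70 chaperone genes (5.71%), beside 0.662% of 27025 genes with a promoter. A pair of units, GAANNTTC or TTCNNGAA, which every 3-unit element contains, occurred in 19 of the 70 (27.1%), beside 17.0% of all genes. The 4 genes with a 3-unit element were Dnajb6, Hspd1, Hspe1 and Hsph1, and that of Hsph1 lies after its RefSeq start sites. The Hsph1 window printed here holds a pair of units. It lies before the RefSeq start sites at 149636336 and 149636315, but inside the longer Hsph1 gene of GENCODE and within its annotated exon. Annotated exons of Dnajb6 and Gm5129 also overlap the Dnajb6 match or the 20 bases on either side of it. An annotated exon of Hspd1 overlaps the Hspe1 match or its flanks in the same way. A match is a run of letters and not a measured binding site. These windows show genes that differed in direction or did not differ, with the matched letters in capitals.
Hspe1: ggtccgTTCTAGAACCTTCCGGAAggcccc
Dnajb6: ctccgaGAATCTTCCGGAAcgctag
Hsph1: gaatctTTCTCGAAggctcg
Dnajb4: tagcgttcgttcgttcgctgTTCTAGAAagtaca
Hspa1a: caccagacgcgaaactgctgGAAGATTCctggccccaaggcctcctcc
Hspa1b: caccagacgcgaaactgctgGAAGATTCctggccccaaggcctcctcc
Hspb1: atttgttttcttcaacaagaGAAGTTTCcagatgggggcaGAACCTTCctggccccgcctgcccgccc
The windows lie at chr1:55088053-55088082 for Hspe1 (plus strand), chr5:29735846-29735870 for Dnajb6 (plus), chr5:149636356-149636375 for Hsph1 (minus) and chr3:152193846-152193879 for Dnajb4 (minus). Those of Hspa1a and Hspa1b lie at chr17:34972233-34972280 and chr17:34959315-34959362 (both minus), and that of Hspb1 at chr5:135887782-135887849 (plus). The Hspe1 element is also the match of Hspd1, which runs the other way from the same stretch.

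Among the genes printed above, directions differed. They are examples, and the 19 genes with a match were not counted by direction. Hsph1 was at 7.49 FPKM in shTaz and 2.78 FPKM in shLuc, Dnajb4 at 9.10 and 3.31 FPKM, and Dnajb6 at 32.4 and 19.7 FPKM, all higher in shTaz. Hspe1, with overlapping 3-unit matches, was at 121 FPKM in both columns. Hspb1, with a pair of elements, was lower, at 6.82 FPKM in shTaz and 12.5 FPKM in shLuc.

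Both directions also occurred among 18 genes commonly described as HSF1 targets. Of these 9 were above and 9 below 0, and the median was 0.02 as deposited and 0.01 with the trends subtracted, beside 0.12 for all genes as deposited. As deposited, 2 of the 18 were called 2-fold higher, against 3.96% of all genes, and none lower, against 3.25%. They were Hsph1 and Chordc1, and neither reached 2-fold with the trends subtracted. Chordc1, a zinc-binding partner of Hsp90 outside the symbol rule, was at 12.4 FPKM in shTaz and 4.41 FPKM in shLuc (1.31, and 0.61 with the trends subtracted). At the low end of the list stood Hspb1 (-0.79, or -0.12 with the trends subtracted) and the lens and muscle small heat shock protein Cryab, at 16.7 FPKM in shTaz and 28.5 FPKM in shLuc (-0.74, or -0.46 with the trends subtracted).

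Of the Hsp70 and Hsp110 genes 12 of 13 were compared. Of these 10 were higher in shTaz, both as deposited and with the trends subtracted, and 9 after median-ratio scaling. Their median difference was 0.45 as deposited, 0.34 after median-ratio scaling and 0.29 with the trends subtracted, beside 0.12 for all genes as deposited. Above that median of all genes lay 9 of the 12 (75%). The Hsp110 genes, whose products release nucleotide from Hsp70 and help dissolve aggregates, were at the top as deposited. With the trends subtracted Hsph1 was still highest, but Hspa1b (0.43) and Hspa1l (0.43) lay above Hspa4l and Hspa4, and Hspa14 (0.34) was level with Hspa4. Hsph1 differed by 1.17 (0.82 with the trends subtracted), Hspa4l, at 5.95 FPKM in shTaz and 2.63 FPKM in shLuc, by 0.94 (0.35), and Hspa4, at 16.6 and 9.83 FPKM, by 0.70 (0.34). All of these were higher in shTaz in every scaling. Hsph1 occupies chr5:149614287-149636376 (mm10, minus strand), and none of the 50-base windows of its transcript occurs in a transcript of another gene.

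Hspa8, the constitutive Hsc70 of the cytosol, was by far the largest Hsp70, at 481 FPKM in shTaz and 342 FPKM in shLuc (0.49, or 0.15 with the trends subtracted). It ranked 123 among all genes in shTaz and 183 in shLuc. Of its 50-base windows 52.7% occur in transcripts of other genes, 47.7% in those of pseudogenes, so its FPKM depends on how the authors placed shared reads. Hspa9, the mitochondrial Hsp70, was at 39.2 and 29.1 FPKM in shTaz and shLuc (0.41, or 0.08 with the trends subtracted). Hspa14, an Hsp70 relative at the ribosome, was at 15.2 FPKM in shTaz and 10.3 FPKM in shLuc. Hspa13, a microsomal relative, was at 3.48 FPKM in shTaz and 2.04 FPKM in shLuc (0.56 as deposited, -0.02 with the trends subtracted).

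Hspa1a and Hspa1b, the strictly heat-inducible Hsp70 genes, were low and nearly level. Hspa1a was at 5.50 FPKM in shTaz and 6.55 FPKM in shLuc (-0.22, turning to 0.07 with the trends subtracted), and Hspa1b at 5.75 FPKM in shTaz and 4.97 FPKM in shLuc (0.18, and 0.43 with the trends subtracted). These neighbors (chr17:34969190-34972156 and chr17:34956436-34959238 in mm10, both minus strand) are near-identical copies. Their promoter windows are the same at 296 of 300 positions, and 66.3% of the 50-base windows of Hspa1a and 62.3% of those of Hspa1b occur in other transcripts, so each alone is uncertain. Their sum was 11.3 FPKM in shTaz and 11.5 FPKM in shLuc. Hspa8 stood 87.5 times above Hspa1a in shTaz and 52.1 times in shLuc. Hspa1l overlaps an antisense transcript over 71.9% of its exons and is uncertain as well, at 1.33 FPKM in shTaz and 0.775 FPKM in shLuc. The last low genes of the family were Hspa2, best known from the testis, at 4.28 FPKM in shTaz and 4.88 FPKM in shLuc, and Hspa12b, a divergent relative of endothelial cells, at 2.18 and 2.09 FPKM.

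**Figure D3:**
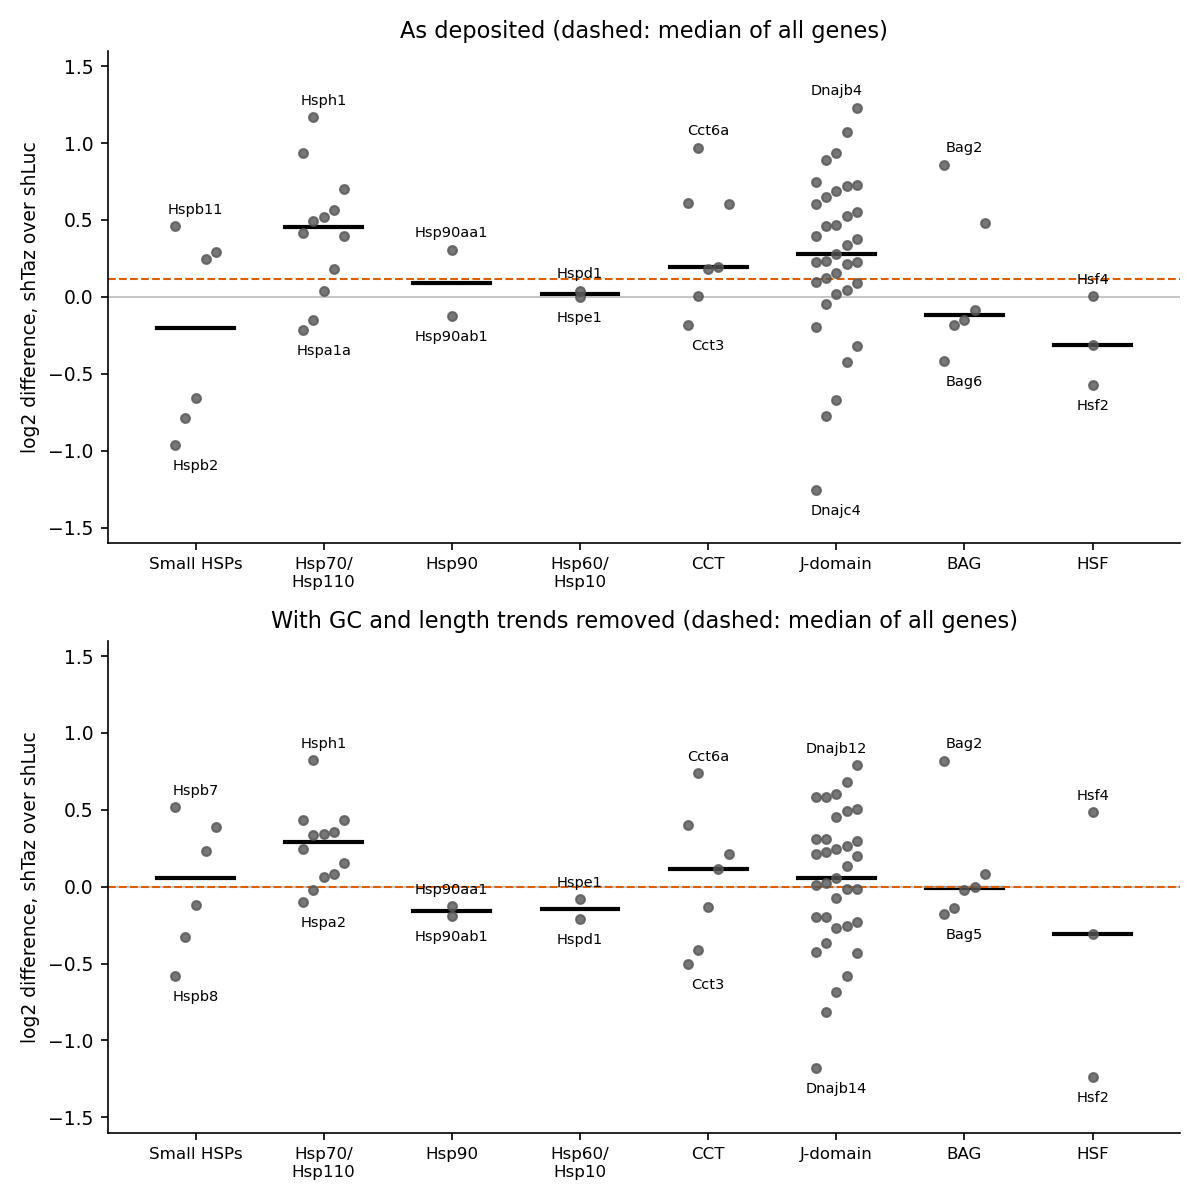
Log2 difference (shTaz over shLuc, y axis) of each compared gene by class (x axis), as deposited above and with the GC and length trends subtracted below; black bars are class medians and the dashed line the median of all genes. The Hsp70 and Hsp110 genes have the highest median in both panels (0.45 and 0.29), while small heat shock proteins, BAG and J-domain proteins spread to both sides of 0.

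Cytosolic Hsp90 held the largest single level. Hsp90ab1, the constitutive form, was at 851 FPKM in shTaz and 928 FPKM in shLuc (-0.13, and -0.19 with the trends subtracted). Hsp90aa1, the inducible form, was at 69.6 FPKM in shTaz and 56.0 FPKM in shLuc (0.31, turning to -0.13 with the trends subtracted). The level of Hsp90ab1 was 12.2 times that of Hsp90aa1 in shTaz and 16.6 times in shLuc. Pseudogene transcripts share 58.5% of the 50-base windows of Hsp90aa1 and 4.49% of those of Hsp90ab1.

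Among Hsp90 partners, Cdc37, which brings kinases to Hsp90, was at 83.9 FPKM in shTaz and 94.1 FPKM in shLuc. Stip1, the adaptor between Hsp70 and Hsp90, was at 42.6 and 43.6 FPKM in shTaz and shLuc, and the ATPase activator Ahsa1 at 37.5 and 40.2 FPKM. Ptges3, the p23 co-chaperone, was higher, at 81.7 FPKM in shTaz and 54.5 FPKM in shLuc (0.58, or 0.21 with the trends subtracted). Across 25 co-chaperones and folding factors outside the symbol rule, 12 were above and 13 below 0, and the median was -0.03. Of the 25, 1 was called 2-fold higher, against 3.96% of all genes, and 1 lower, against 3.25%. The higher call was Chordc1 (given above). The lower call was Serpinh1, the collagen chaperone Hsp47 of the endoplasmic reticulum. It was at 53.1 FPKM in shTaz and 115 FPKM in shLuc (-1.10, and -0.90 with the trends subtracted). The collagen gene Col1a1 was at 841 FPKM in shTaz and 1375 FPKM in shLuc.

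The J-domain proteins are the largest class, with 35 of 42 genes compared. As deposited 28 were above 0, after median-ratio scaling 23, and with the trends subtracted 20. Their median was 0.28 as deposited and 0.06 with the trends subtracted. As deposited 24 of the 35 (68.6%) lay above the median of all genes. All 4 DNAJA genes, the general Hsp70 partners with a zinc-finger domain, were higher in shTaz in each scaling, with a median of 0.72 as deposited and 0.38 with the trends subtracted. Dnaja2 was at 37.2 FPKM in shTaz and 19.0 FPKM in shLuc, Dnaja1 at 19.1 and 9.85 FPKM, and the mitochondrial Dnaja3 at 12.5 and 8.19 FPKM. Dnaja4, at 3.78 FPKM in shTaz and 2.46 FPKM in shLuc, shares 51.9% of its windows with the opposite gene Wdr61 and is uncertain, as strand use in counting is not given in the sources used here. Of the Dnaja1 windows 28.8% occur in transcripts of other genes, 18.3% in those of pseudogenes, so its level is uncertain too.

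Of 9 compared DNAJB genes 7 were higher in shTaz, as deposited and with the trends subtracted (medians 0.52 and 0.51). Dnajb4, a cytosolic partner of Hsp70, was at 9.10 FPKM in shTaz and 3.31 FPKM in shLuc, a difference of 1.23 (0.68 with the trends subtracted). The gene occupies chr3:152178511-152210302 (mm10, minus strand) and shares no 50-base window with another gene. Dnajb1, the heat-inducible Hsp40, was at 28.8 FPKM in shTaz and 19.7 FPKM in shLuc (0.52, or 0.51 with the trends subtracted). Dnajb6, which holds back aggregation of glutamine-rich proteins, differed by 0.69 (0.59 with the trends subtracted), and 42.8% of its windows occur elsewhere. Dnajb12 and Dnajb14, both membrane proteins of the endoplasmic reticulum, differed in opposite directions. Dnajb12 was at 12.5 FPKM in shTaz and 7.06 FPKM in shLuc (0.75), and Dnajb14 at 2.09 FPKM in shTaz and 3.92 FPKM in shLuc (-0.67, or -1.18 with the trends subtracted). Dnajb2, known from neurons, was at 13.9 FPKM in shTaz and 24.5 FPKM in shLuc (-0.77, or -0.58).

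The DNAJC genes, which are the most varied in structure, had a median of 0.18 over 22 genes as deposited and -0.04 with the trends subtracted, a change of sign. Dnajc4 was at 11.6 FPKM in shTaz and 29.2 FPKM in shLuc, 39.8% of the control level, a difference of -1.26 (-0.81 with the trends subtracted). The gene occupies chr19:6987911-6992572 (mm10, minus strand). Dnajc8, an RNA splicing-associated member and the most abundant J-domain gene, was at 48.4 FPKM in shTaz and 45.4 FPKM in shLuc (0.09, turning to -0.23 with the trends subtracted). Dnajc5, the cysteine string protein of secretory vesicles, was at 13.7 FPKM in shTaz and 8.69 FPKM in shLuc (0.60, or 0.31). Dnajc16 was at 4.06 FPKM in shTaz and 2.08 FPKM in shLuc (0.72, or 0.58).

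**Figure D4:**
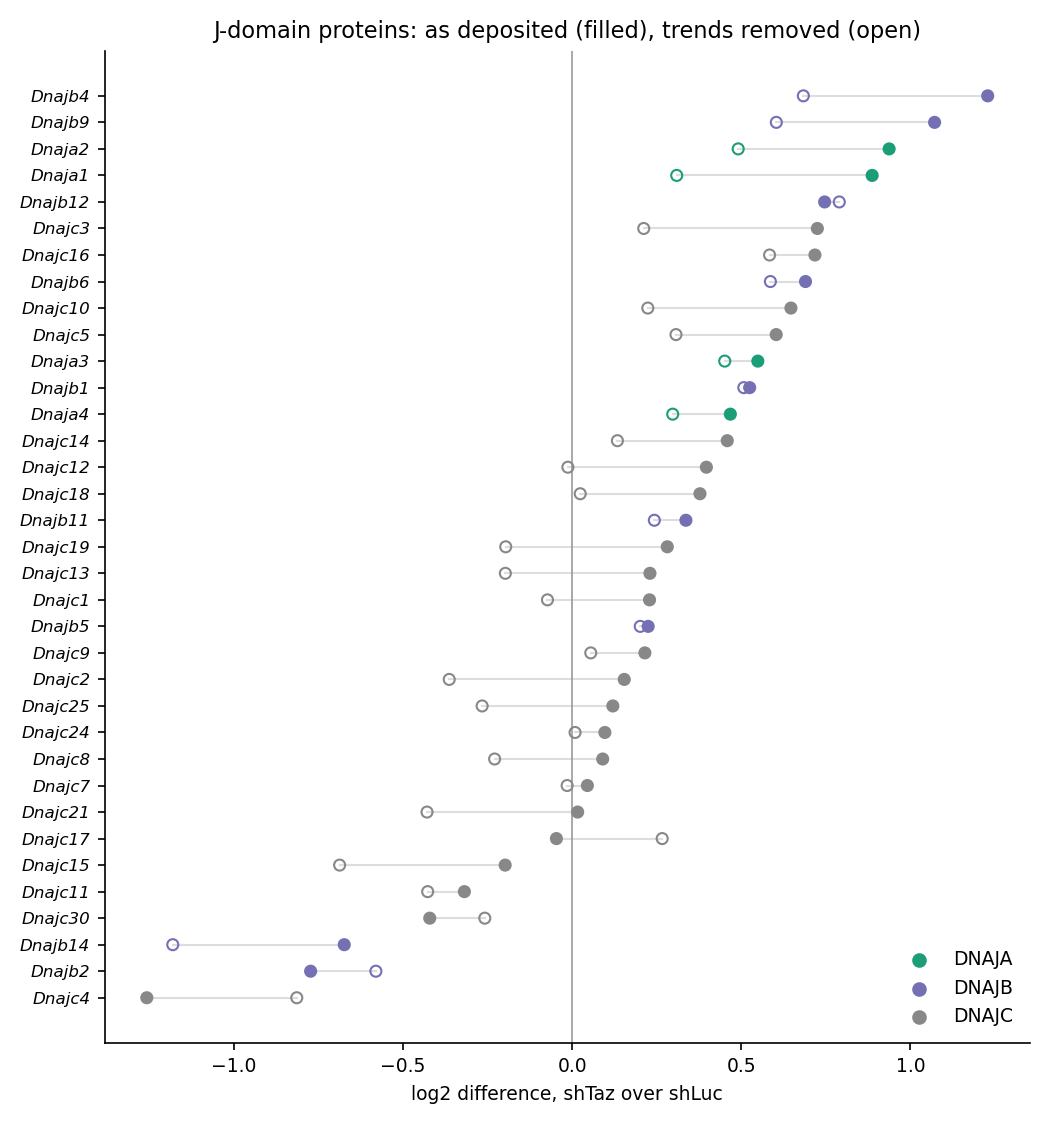
Log2 difference (shTaz over shLuc, x axis) of the 35 compared J-domain genes, ordered by the deposited value; filled points are as deposited, open points have the GC and length trends subtracted, and colors mark the subfamily. All DNAJA points lie right of 0, Dnajb4 is highest and Dnajc4 and Dnajb2 are lowest as deposited, and Dnajb14 and Dnajc4 are lowest with the trends subtracted.

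J-domain proteins were also grouped by where they are known to work. The 4 of the endoplasmic reticulum lumen were all higher in shTaz in every scaling, with a median of 0.69 (0.23 with the trends subtracted). Dnajb9, a helper in removing misfolded proteins, was at 6.04 FPKM in shTaz and 2.35 FPKM in shLuc (1.07, or 0.60). Dnajc3 was at 15.8 FPKM in shTaz and 9.19 FPKM in shLuc, the reductase Dnajc10 at 14.8 and 9.07 FPKM, and Dnajb11 at 38.2 and 30.1 FPKM. Their partner Hspa5 was at 227 FPKM in shTaz and 185 FPKM in shLuc (0.29, turning to -0.09 with the trends subtracted), and Hsp90b1 at 267 and 196 FPKM (0.45, turning to -0.04). The 5 mitochondrial J-domain genes had a median of -0.20 (-0.26 with the trends subtracted). Only Dnaja3 and Dnajc19 were above 0 as deposited, and only Dnaja3 with the trends subtracted. Dnajc15, of the inner membrane import machinery, was at 15.8 FPKM in shTaz and 18.3 FPKM in shLuc, and Dnajc30 at 13.6 and 18.6 FPKM.

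Hspd1 and Hspe1, the Hsp60 ring and its Hsp10 lid in mitochondria, were level. Hspe1 was at 121 FPKM in shTaz and 121 FPKM in shLuc, and Hspd1 at 38.6 FPKM in shTaz and 37.5 FPKM in shLuc (0.04, turning to -0.21 with the trends subtracted). Their ratio was 3.14 in shTaz and 3.24 in shLuc. The genes lie head to head in mm10, Hspd1 at chr1:55077835-55088243 (minus) and Hspe1 at chr1:55088132-55091307 (plus). Pseudogene transcripts share 44.8% of the windows of Hspd1.

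The cytosolic ring CCT (also TRiC) folds actin and tubulin and is built from 8 different subunits in equal number. Its 8 genes, Tcp1 included, ranged from 37.5 FPKM (Cct8) to 82.8 FPKM (Cct5) in shTaz and from 24.3 FPKM (Cct8) to 91.0 FPKM (Cct3) in shLuc. The highest was 2.21 times the lowest in shTaz and 3.74 times in shLuc, and the sum was 465 FPKM in shTaz and 379 FPKM in shLuc. Cct6a differed most, at 67.8 FPKM in shTaz and 34.1 FPKM in shLuc (0.97, or 0.74 with the trends subtracted). It shares 16.8% of its windows with the opposite gene Psph, itself at 10.5 FPKM in shTaz and 5.91 FPKM in shLuc. Cct2 was at 59.5 FPKM in shTaz and 38.6 FPKM in shLuc (0.61, or 0.40) and Cct8 at 37.5 and 24.3 FPKM (0.60, or 0.22). Cct5 was at 82.8 and 72.9 FPKM (0.18, or 0.12). Cct4, at 40.9 and 35.5 FPKM, differed by 0.20 as deposited and by -0.13 with the trends subtracted, and Cct7, at 46.0 FPKM in shTaz and 45.9 FPKM in shLuc, by 0.01 and by -0.41. Cct3 was lower in shTaz, at 79.9 FPKM, than in shLuc, at 91.0 FPKM (-0.19, or -0.50). Of the 7 subunits taken by the symbol rule, 6 were above 0 as deposited, 5 after median-ratio scaling and 4 with the trends subtracted. As deposited 5 of the 7 lay above the median of all genes.

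**Figure D5:**
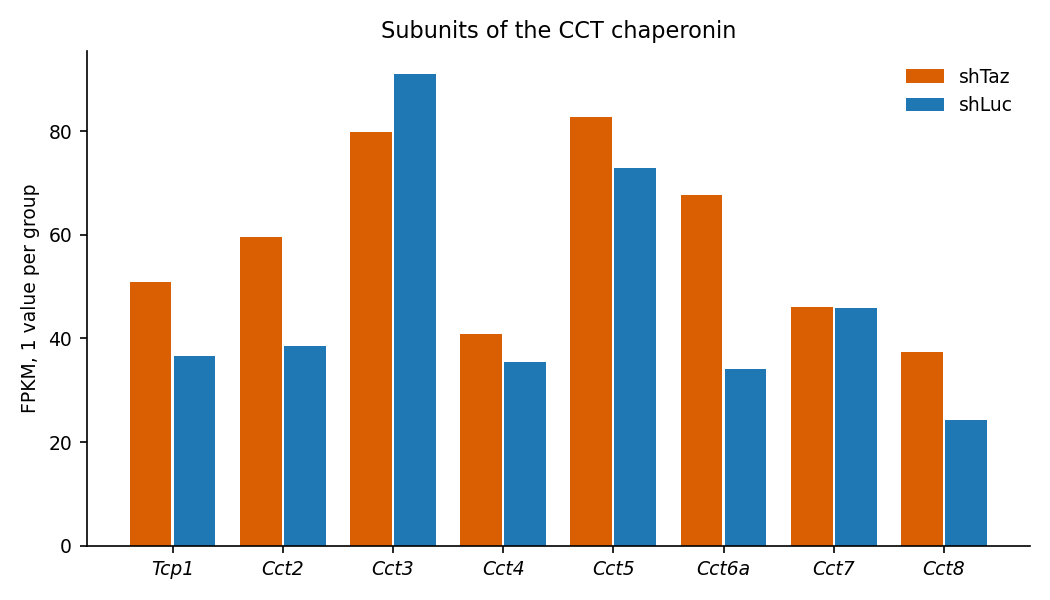
FPKM (y axis, from 0) of the 8 CCT subunit genes, 1 value per group (orange shTaz, blue shLuc). Cct6a shows the widest gap (67.8 and 34.1 FPKM), Cct7 is level, and Cct3 alone is lower in shTaz.

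Small heat shock proteins lay on both sides of 0. Of 8 genes 6 were compared, 3 above and 3 below 0, with a median of -0.21 (0.06 with the trends subtracted). Hspb2, a muscle-rich member, was at 14.6 FPKM in shTaz and 29.5 FPKM in shLuc (-0.96, or -0.33 with the trends subtracted). Its exons overlap those of the neighboring Cryab over 30.2% of their length, and Cryab was lower too (above). Hspb1, the widely expressed Hsp25, differed by -0.79 (-0.12 with the trends subtracted), and a pseudogene and a second gene share 51.6% of its windows. Hspb8, which works with Bag3 in clearing proteins by autophagy, was at 5.48 FPKM in shTaz and 9.22 FPKM in shLuc (-0.66, or -0.58) and shares no window with another gene. Hspb6 was at 10.6 FPKM in shTaz and 8.74 FPKM in shLuc, and the heart and muscle member Hspb7 at 1.85 and 1.33 FPKM. Hspb11, also known as the intraflagellar transport subunit Ift25 and not a typical member, was at 9.91 FPKM in shTaz and 6.94 FPKM in shLuc (0.46, or 0.23).

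Several of these genes are strong in muscle, and muscle markers differed between the columns. Of 9 skeletal muscle markers 5 were compared and 4 of these were 2-fold higher in shTaz, against 3.96% of all genes. Acta1 (0 FPKM in shLuc), Ckm (0.436 FPKM) and Mylpf (0.706 FPKM) passed the filter only through shTaz. Such a selection leans toward higher calls, so this count cannot be weighed against the share of all genes. The remaining higher call, Tnnt3, lay above 1 FPKM in both columns and differed by 1.78 (2.02 with the trends subtracted). The summed level of the 9 was 38.1 FPKM in shTaz and 15.6 FPKM in shLuc, with Acta1, Myh4 and Pvalb listed at 0 in shLuc, while Tnnc2 was lower, at 5.86 FPKM in shTaz and 12.4 FPKM in shLuc. The 5 smooth muscle markers summed to 37.4 FPKM in shTaz and 64.4 FPKM in shLuc, with none at 0. Acta2 and Tagln, which carry that sum, were lower in shTaz. Of the 4 compared, 1 was called 2-fold lower, against 3.25% of all genes, and 1 higher, against 3.96%. The lower call was Tagln, at 2.82 FPKM in shTaz and 11.1 FPKM in shLuc. The higher call was Des, at 3.004 FPKM in shTaz and 0.586 FPKM in shLuc, which passed the filter only through shTaz. Cnn1 was at 1.81 and 1.70 FPKM. The 6 fibroblast markers summed to 1005 FPKM in shTaz and 1770 FPKM in shLuc, mostly from Col1a1, and 3 of them were 2-fold lower, against 3.25% of all genes. Pdgfra was higher, at 13.5 FPKM in shTaz and 8.75 FPKM in shLuc. The part of muscle or fibroblast cells in the values of Hspb2, Hspb6, Hspb7, Cryab and Serpinh1 was not tested. The 5 endothelial markers summed to 75.0 FPKM in shTaz and 115 FPKM in shLuc. Most of that gap came from Plvap, at 36.2 FPKM in shTaz and 67.2 FPKM in shLuc, and Cldn5 was lower too (-0.76). Pecam1 (-0.08) and Cdh5 (-0.10) were nearly level as deposited, and Kdr was higher in shTaz (0.45). None of the 5 was called 2-fold, and their median difference was -0.10 (-0.25 with the trends subtracted). The macrophage markers read (4 of 5) lay on both sides of 0. C1qa, which makes up most of their sum, was at 1470.3 FPKM in shTaz and 1868 FPKM in shLuc, while Csf1r was higher, at 174 FPKM in shTaz and 132 FPKM in shLuc, and so was Mrc1, at 20.7 and 12.3 FPKM. The sum was 1746 FPKM in shTaz and 2095 FPKM in shLuc, and with the trends subtracted all 4 were above 0. The neutrophil markers read (4 of 5) summed to 55.6 FPKM in shTaz and 5.60 FPKM in shLuc, with S100a8 listed at 0 in shLuc. S100a8 (18.6 FPKM) and S100a9 (29.2 FPKM) made up most of the shTaz sum. Csf3r was at 7.10 FPKM in shTaz and 3.93 FPKM in shLuc. Cxcr2 went the other way, at 0.694 FPKM in shTaz and 0.867 FPKM in shLuc, with a mean under 1 FPKM.

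BAG proteins, which bind the ATPase part of Hsp70, were mostly level or lower in FPKM. Of 6 genes 2 were above and 4 below 0 as deposited, after median-ratio scaling and with the trends subtracted. Their median was -0.12 as deposited. As a share of the column sum, the 6 genes together held 0.0456% in shTaz and 0.0451% in shLuc, so the direction depends on the scaling. Bag1, the most abundant, was at 87.0 FPKM in shTaz and 96.6 FPKM in shLuc (-0.15, turning to 0.08 with the trends subtracted). Bag6, which guards membrane proteins before insertion, was at 65.0 FPKM in shTaz and 87.2 FPKM in shLuc (-0.42, or -0.14). The stress-induced Bag3 was at 23.5 FPKM in shTaz and 26.8 FPKM in shLuc (-0.18, or -0.02). Bag2 stood apart, at 7.84 FPKM in shTaz and 3.88 FPKM in shLuc (0.86, and 0.82 with the trends subtracted). Bag2 is known to inhibit the ubiquitin ligase CHIP, encoded by Stub1, which was at 61.0 FPKM in shTaz and 113 FPKM in shLuc (-0.88, or -0.43 with the trends subtracted). Bag4 was at 2.08 FPKM in shTaz and 1.21 FPKM in shLuc (0.48, and -0.00 with the trends subtracted), and Bag5 at 9.84 and 10.5 FPKM. Hspbp1, a further exchange factor of Hsp70, was at 15.8 FPKM in shTaz and 22.3 FPKM in shLuc (-0.48, or -0.03).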

How the data were processed

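RNA from subcutaneous tumors was sequenced, with 2 shTaz and 2 shLuc samples in the labels. The authors deposited FPKM values in 1 column per group, whose headings match a label that both samples of the group carry. The submitters' processing notes name TopHat, Trim Galore and build mm10. Versions, the FPKM program, the annotation and strand use are not given in the sources used here. Genes listed have a value above 0 in at least 1 column. FPKM corrects for transcript length and library total, not for GC content, and shared reads of near-identical genes can be split between them.

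A limma test would need sample columns, so differences of log2(FPKM + 1) are given without a test, for genes averaging 1 FPKM or more. The GC and length trends were fitted by lowess (span 0.3, statsmodels 0.14.6) over 11084 genes with GENCODE M21 transcripts and subtracted, a step tested on simulated data. Median-ratio scaling used genes above 0 in both columns. Shared sequence is the share of the 50-base windows of a gene's longest transcript found in transcripts of other genes on either strand. Named genes are the 2-fold members, the most abundant, highest and lowest of each class, and 13 fixed genes, 25 in all. Others were named after their values were seen. Members and lists were chosen with earlier results of these data known, and the compartment groups and the shared-sequence measure after seeing the values. Pfdn6, Adgre1 and several neuroendocrine markers are not analysed here.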

Additional observations from a re-analysis of the deposited data

How the results depend on the processing

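No paired analysis was possible because the table holds 1 column per group, and for the same reason no replicate could be left out. The 3 of 74 genes called 2-fold higher became 4 of 74 with a pseudocount of 0.1 and 2 of 58 with a mean of at least 5 FPKM. They became 2 of 74 after median-ratio scaling and 0 with the GC and length trends removed. The single gene called lower became 2 with a pseudocount of 0.1 and 2 after median-ratio scaling (Dnajc4 and Hspb2), and with the trends removed 2 (Dnajb14 and Hsf2). A difference of more than 0.1 is counted as a move for medians. After median-ratio scaling the median of all genes was 0, against 0.12 as deposited, and the medians were 0.10 for all chaperone genes, -0.33 for small heat shock proteins, 0.34 for Hsp70 and Hsp110, 0.15 for J-domain proteins, 0.064 for CCT and -0.25 for BAG. With the trends removed they were 0.061, 0.056, 0.29, 0.055, 0.12 and -0.011. The small heat shock protein median turned to 0.18 without a filter (8 genes) and, in an alternative chosen after seeing the data, to 0.27 over the 4 members with under 25% shared windows, and was -0.66 with a mean of at least 5 FPKM. That added alternative moved the medians of the Hsp70 and Hsp110, J-domain, CCT and BAG classes by no more than 0.1. It left only Hsp90ab1 (-0.13) of the Hsp90 pair. The medians of the Hsp90, Hsp60 and heat shock factor classes were not recomputed. Over all genes, 996 were called higher with a pseudocount of 0.1 and 189 with the trends removed, against 461 as reported.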
